A study of Mus musculus with 24 samples.

Results

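The report concerns 9 genes of reactive oxygen metabolism in mouse aorta: the NADPH oxidase subunit genes Nox1, Nox4, Cybb, Cyba, Ncf1 and Ncf4, and the antioxidant genes Sod3, Hmox1 and Nqo1. They were taken by name from the 40141 genes of the deposited count table, all 9 were present, and all 9 passed the filter on low counts that kept 24623 genes. Nox1 passed it through 5 libraries with 10 or more counts, described below with the oxidases. The study sequenced total RNA of mouse aorta in 24 libraries. Wild type and Cthrc1-/- mice, which lack a functional gene for a secreted collagen triple helix repeat protein per their genotype label, were given either PBS, a saline control, or Ang-II/BAPN. The latter pairs angiotensin II with β-aminopropionitrile, which blocks lysyl oxidase, and is used to provoke aortic dissection. Each genotype and treatment has 6 libraries, 3 with titles that begin with F (the F set) and 3 without (the plain set), and neither the meaning of F nor strain, age, dose or days of treatment is stated in the labels used here.

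NADPH oxidases move electrons from NADPH across a membrane to oxygen and so make superoxide or hydrogen peroxide. Each enzyme has 1 catalytic subunit: Nox4 in smooth muscle, endothelium and kidney tubule, Nox1 in colon epithelium and at low level in vascular smooth muscle, and Cybb (also called gp91phox) in macrophages and neutrophils. All of these partner with Cyba, and Cybb also needs cytosolic subunits such as Ncf1 and Ncf4 to become active, whereas Nox4 is regarded as active whenever it is present. Angiotensin II is a classical activator of these enzymes in the vessel wall. Of the antioxidant genes, Sod3 encodes the extracellular superoxide dismutase that arterial smooth muscle secretes, Hmox1 the inducible haem oxygenase that breaks down haem, and Nqo1 a quinone reductase; the transcription factor NRF2 drives Hmox1 and Nqo1 through antioxidant response elements.

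Positions are those of the deposited table, on build GRCm38. The catalytic subunit genes are Nox1 (ENSMUSG00000031257, chromosome X, 134086421 to 134221956, minus strand), Nox4 (ENSMUSG00000030562, chromosome 7, 87246096 to 87398710, plus strand) and Cybb (ENSMUSG00000015340, chromosome X, 9435252 to 9487771, minus strand). Their partners are Cyba (ENSMUSG00000006519, chromosome 8, 122424776 to 122432930, minus strand), Ncf1 (ENSMUSG00000015950, chromosome 5, 134220053 to 134229625, minus strand) and Ncf4 (ENSMUSG00000071715, chromosome 15, 78244801 to 78262580, plus strand). Ncf4 lies on the chromosome that also carries Cthrc1 (ENSMUSG00000054196, 39076932 to 39087121, plus strand). The antioxidant genes are Sod3 (ENSMUSG00000072941, chromosome 5, 52363791 to 52371418, plus strand), Hmox1 (ENSMUSG00000005413, chromosome 8, 75093621 to 75100589, plus strand) and Nqo1 (ENSMUSG00000003849, chromosome 8, 107388225 to 107403206, minus strand). Ncf1 overlaps Gtf2ird2 on the other strand, and Cyba lies inside the interval of Gm20388 on the other strand. Since it is not given whether the counting used strand, counts of these pairs cannot be told apart with certainty. Gtf2ird2 itself stood at 6.38 ± 0.964 CPM under PBS and 7.83 ± 1.59 CPM under Ang-II/BAPN in wild type aorta (mean ± SD, n = 6; CPM are counts relative to the TMM-scaled library size), a far smaller shift than that of Ncf1 given below.

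RefSeq promoter sequences of the same build (GRCm38.p6; 250 bases before the start site and 50 bases after it) matched 6 of the 9 genes. The 4 shown are those of the phagocyte oxidase genes Cybb and Ncf1, which both rose with treatment, of their membrane partner Cyba, whose level per length was already high under PBS, and of Nqo1, the member that fell. They are written 5′ to 3′ on the strand of the gene, and capitals mark a GAGGAA core, the letters bound by the myeloid factor PU.1, on either strand (TTCCTC where it is on the other).
Cybb (chrX:9469275-9469574, minus strand): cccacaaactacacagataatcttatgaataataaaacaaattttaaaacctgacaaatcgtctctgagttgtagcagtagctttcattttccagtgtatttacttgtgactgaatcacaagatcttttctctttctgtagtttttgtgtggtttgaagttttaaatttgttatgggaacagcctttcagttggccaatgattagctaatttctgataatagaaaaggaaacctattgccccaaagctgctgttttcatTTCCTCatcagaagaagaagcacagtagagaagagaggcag
Ncf1 (chr5:134229576-134229875, minus strand): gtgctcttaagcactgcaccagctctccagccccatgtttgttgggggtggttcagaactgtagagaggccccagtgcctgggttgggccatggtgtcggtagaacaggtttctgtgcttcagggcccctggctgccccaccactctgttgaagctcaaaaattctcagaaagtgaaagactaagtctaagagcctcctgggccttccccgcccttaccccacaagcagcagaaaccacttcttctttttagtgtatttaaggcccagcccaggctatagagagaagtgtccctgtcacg
Cyba (chr8:122432891-122433190, minus strand): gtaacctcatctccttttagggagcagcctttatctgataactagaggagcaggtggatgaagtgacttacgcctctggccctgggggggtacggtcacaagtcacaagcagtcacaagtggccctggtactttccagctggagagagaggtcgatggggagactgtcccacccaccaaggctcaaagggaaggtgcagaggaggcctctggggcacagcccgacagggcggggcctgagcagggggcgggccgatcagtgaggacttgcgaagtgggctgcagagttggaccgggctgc
Nqo1 (chr8:107403156-107403455, minus strand): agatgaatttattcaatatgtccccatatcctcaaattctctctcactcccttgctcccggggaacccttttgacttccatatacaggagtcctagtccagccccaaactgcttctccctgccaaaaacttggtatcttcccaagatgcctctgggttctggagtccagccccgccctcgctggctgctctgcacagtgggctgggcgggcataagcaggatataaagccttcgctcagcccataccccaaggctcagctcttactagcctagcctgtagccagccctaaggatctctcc
The GAGGAA core was found in 2 of the 6 windows, those of Cybb and Nox1, and in 28.3% of 32851 RefSeq promoters of the same length. The antioxidant response element core, searched as TGACNNNGC on both strands, was in 0 of the 6 windows, that of Nqo1 included, and in 12.4% of all promoters. These matches describe letters in a short window only.

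Library totals ran from 39002048 to 82040703 counts. The targeted gene was read first: Cthrc1 stood at 1.87 ± 0.378 CPM under PBS and 69.0 ± 32.7 CPM under Ang-II/BAPN in wild type aorta, and at 0.366 ± 0.175 and 4.97 ± 3.21 CPM in Cthrc1-/- aorta (mean ± SD, n = 6 each). Smooth muscle markers, which define the aortic media, were present in every library, with all 10 listed genes tested. Some libraries stood apart by transcripts of other tissues or cells, and each such set is compared beside the genes it touches. Intestinal epithelium markers (10 genes) summed to at least 10 CPM in 8 libraries, all 3 treated wild type libraries of the plain set among them. Kidney tubule markers (10 genes) reached at least 1000 CPM in 4 libraries, red cell markers (6 genes) at least 10000 CPM in 2 libraries, both treated, and the small nuclear RNA Rn7sk at least 4 CPM in 5 libraries. Xist ran from 186 to 933 CPM across F titles and from 0.131 to 13.0 CPM across plain titles. The title sets were thus fully apart in Xist, and what differs with Xist cannot be told apart from title set.

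Levels of different genes were compared in the deposited FPKM values, which are scaled to transcript length. In wild type aorta under PBS, Sod3 came first with 113 ± 24.6 FPKM, followed by Cyba with 24.9 ± 7.17 FPKM and Nox4 with 16.8 ± 9.92 FPKM (mean ± SD, n = 6). Hmox1 stood at 6.85 ± 2.09 FPKM and Nqo1 at 5.40 ± 1.25 FPKM. Ncf1, Cybb and Ncf4 followed at 0.965 ± 0.398, 0.684 ± 0.333 and 0.495 ± 0.102 FPKM, and Nox1 was last, with at most 0.0229 FPKM. The lowest Sod3 library (83.3 FPKM) lay above the highest Cyba library (33.4 FPKM), whereas the ranges of Cyba and Nox4, of Nox4 and Hmox1, of Hmox1 and Nqo1, and of Ncf1, Cybb and Ncf4 overlapped. Under PBS the extracellular dismutase, Cyba and Nox4 were thus the abundant transcripts of this set, and the phagocyte subunits were low.

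**Figure D1:**
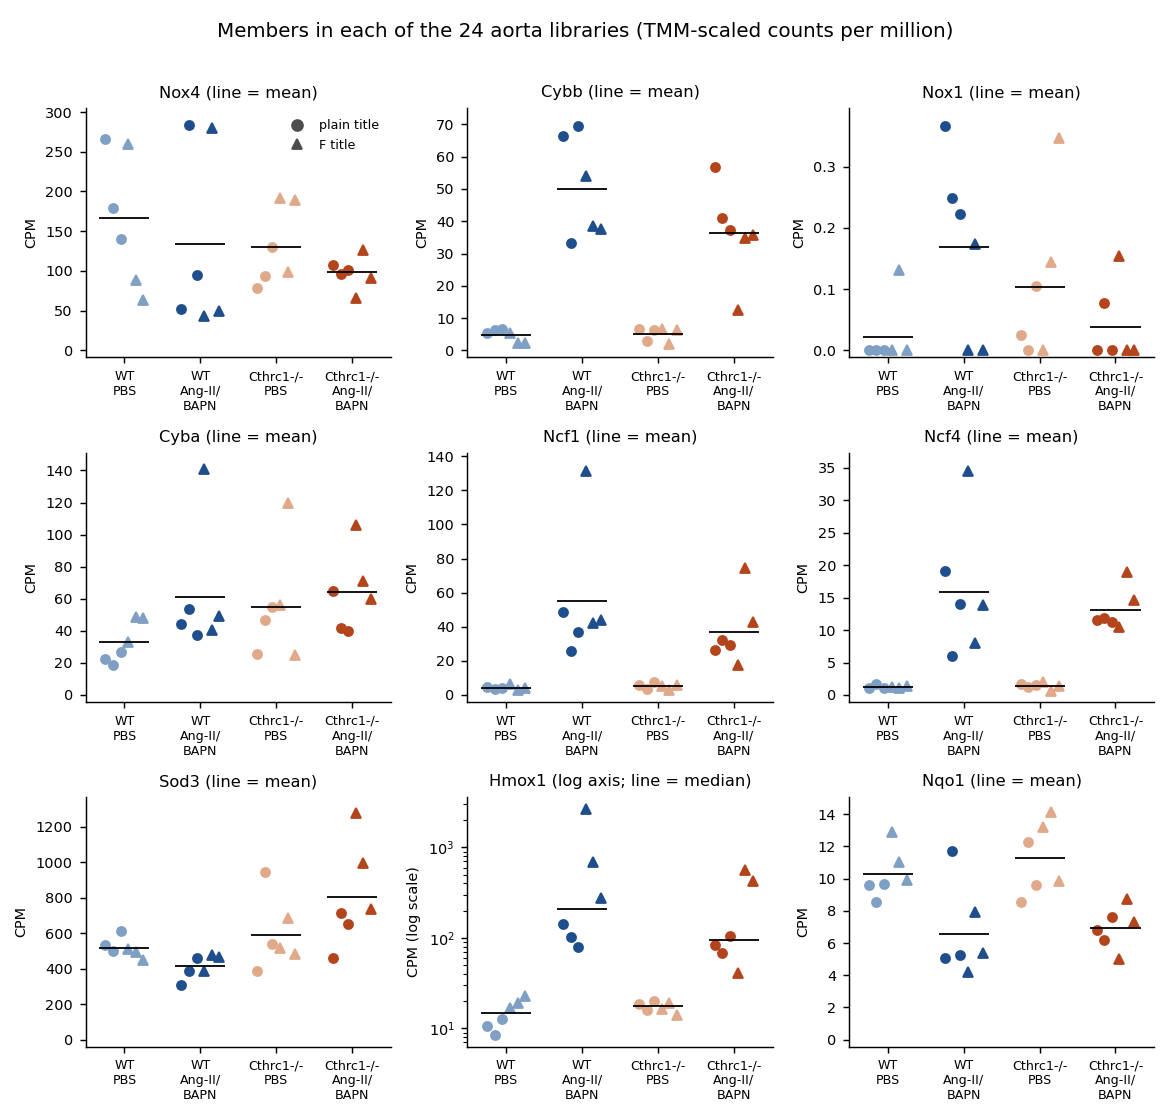
Level of each of the 9 genes in CPM (y axis, linear, except Hmox1 on a log scale) in every library, by genotype and treatment (x axis); circles are plain titles, triangles are F titles, and the line is the mean (for Hmox1 the median) of 6 libraries. Cybb, Ncf1, Ncf4 and Hmox1 sit higher in every treated library than in any PBS library of the same genotype, while Nox4, Cyba and Sod3 overlap between treatments.

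Among the oxidase genes, only phagocyte subunits passed the test in treated wild type aorta. Cybb, Ncf1, Ncf4 and Hmox1 rose, Nqo1 fell, and Nox1, Nox4, Cyba and Sod3 did not pass the test (edgeR quasi-likelihood test on counts, Benjamini-Hochberg adjusted p under 0.05 over all tested genes, n = 6 per group). That is 4 of 9 genes higher and 1 lower, where 24.8% of all tested genes were called, 13.3% higher and 11.5% lower. The median log2 fold change of the 9 genes was 3.46, and 2.19 over the 8 without Nox1, whose few counts give it an uncertain sign, against 0.01 over all tested genes. The 4 that rose had no overlap between the treated and PBS libraries, which held for 12.1% of all genes, 6.94% upward and 5.14% downward. With plain titles alone, 8.61% of genes were called (4.72% higher, 3.89% lower), and with F titles alone 13.9% (7.85% higher, 6.08% lower).

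Cybb, the catalytic subunit of the phagocyte oxidase, lay between 2.29 and 6.57 CPM under PBS (median 5.30) and between 33.4 and 69.5 CPM under Ang-II/BAPN (median 46.4) in wild type aorta. The lowest treated library was thus several times above the highest PBS library. Its log2 fold change was 3.46 (SE 0.35, 95% interval 2.72 to 4.20, edgeR adjusted p = 2.0e-06). The plain titles gave 3.21 and the F titles 3.71, both called.

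Ncf1, the organiser subunit also called p47phox, lay between 2.96 and 6.52 CPM under PBS (median 4.02) and between 26.0 and 132 CPM under Ang-II/BAPN (median 43.1). The highest value belonged to replicate 1 of the treated F set, and the other 5 treated libraries were at or below 48.8 CPM. Treatment raised it by a log2 fold change of 3.60 (SE 0.36, 95% interval 2.84 to 4.37, edgeR adjusted p = 1.8e-06), with 3.21 for plain and 3.995 for F titles. Ncf4, the p40phox subunit, lay between 1.13 and 1.65 CPM under PBS (median 1.17) and between 6.06 and 34.6 CPM under Ang-II/BAPN (median 13.9). The same library was highest for it, and the ranges were again apart. Its log2 fold change was 3.63 (SE 0.36, 95% interval 2.88 to 4.38, edgeR adjusted p = 1.6e-06).

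Markers of the cells that carry this oxidase moved with it. All 10 macrophage markers and all 10 neutrophil markers were higher in treated wild type aorta, where 13.3% of all tested genes were. So they were in treated Cthrc1-/- aorta, where 7.03% of all tested genes were higher. Summed macrophage markers went from between 129 and 308 CPM to between 996 and 5262 CPM in wild type, and summed neutrophil markers from between 1.41 and 5.23 CPM to between 51.2 and 313 CPM. In bulk RNA, more cells of a type and more RNA per cell cannot be told apart. The treated F set replicate 1 that was highest for Ncf1 and Ncf4 was also the library with 5262 CPM of macrophage markers, but its 54.1 CPM of Cybb lay below plain replicates 1 and 3 (66.3 and 69.5 CPM). In treated Cthrc1-/- aorta, F replicate 1 had the second highest macrophage sum of its group (2048 CPM) and the lowest Cybb, Ncf1 and Ncf4 (12.6, 17.8 and 10.5 CPM). Without the 2 libraries rich in red cell markers, of which it is 1, log2 fold changes in wild type were 3.37 for Cybb, 3.23 for Ncf1 and 3.24 for Ncf4, all still called by edgeR (an alternative chosen after seeing the data).

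Cyba, the p22phox subunit shared by Nox1, Nox4 and Cybb, had a smaller fold change than its phagocyte partners and was not called. It lay between 18.6 and 48.4 CPM under PBS (median 30.1) and between 37.5 and 141 CPM under Ang-II/BAPN (median 46.9) in wild type aorta. The treated value of 141 CPM, again replicate 1 of the F set, stood alone, and the other 5 treated libraries lay between 37.5 and 53.9 CPM, across the top of the PBS range. The log2 fold change of 0.92 (SE 0.33, 95% interval 0.22 to 1.62) missed the threshold (edgeR adjusted p = 0.051). This call depended on the setting: DESeq2 called it (log2 fold change 0.91, adjusted p = 0.036), whereas without the 2 libraries rich in red cell markers the value was 0.53 (edgeR adjusted p = 0.23). Over all 39 alternative analyses it was called in 13, among them those without replicate 2 or 3 of the treated wild type F set, without plain replicate 1 or F replicates 2 or 3 of Cthrc1-/- aorta under PBS, and without F replicate 1 of treated Cthrc1-/- aorta.

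Nox4, the constitutive oxidase of the vessel wall, scattered widely in wild type aorta. In wild type aorta it lay between 63.9 and 266 CPM under PBS (median 159) and between 42.8 and 284 CPM under Ang-II/BAPN (median 74.0). Replicate 2 of both treated sets reached 284 and 279 CPM, while the other 4 treated libraries lay at or below 95.5 CPM. Its log2 fold change was -0.29 (SE 0.46, adjusted p = 0.70 by edgeR), and its 95% interval of -1.25 to 0.67 spans a fall and a rise. Smooth muscle markers, of a main source of Nox4, were all 10 called lower, where 11.5% of all tested genes were. Their summed mean went from 24218 to 4728 CPM, and their part in the Nox4 values was not tested. Kidney markers, of a tissue with abundant Nox4, summed to 4019 CPM in the treated plain set library of high Nox4 and to 35.4 CPM in that of the treated F set. Their part in the Nox4 values was not tested either. Without the 4 libraries with at least 1000 CPM of kidney markers, chosen after seeing the data, the log2 fold change was -0.77 (edgeR adjusted p = 0.27). That setting removed the plain set library of high Nox4. Without the 8 libraries with intestinal markers, which leaves only the F set, it was -1.58 (edgeR adjusted p = 0.08). Both libraries of high Nox4 were among these 8, and the treated wild type libraries kept held 42.8 and 49.6 CPM.

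Nox1 was close to absent. It had 0 counts in 13 of 24 libraries, where 3 counts, the limit that a count of 0 allows, correspond to between 0.036 and 0.0788 CPM, and at most 33 counts (0.366 CPM) in any library. Pooled over 6 libraries, wild type aorta had 7 counts under PBS and 82 under Ang-II/BAPN, and Cthrc1-/- aorta 45 and 11. The 3 treated wild type libraries of the plain set held 33, 22 and 16 counts, replicate 2 of the treated wild type F set 11, and replicate 3 of the Cthrc1-/- F set under PBS 26. These are the 5 libraries with 10 or more counts, and all 5 had at least 10 CPM of intestinal markers. The 3 other libraries at that level, treated Cthrc1-/- plain replicates 1, 2 and 3 with 82.7, 98.9 and 11.04 CPM of these markers, had 0, 5 and 0 Nox1 counts. In the 16 libraries with fewer intestinal transcripts Nox1 had at most 9 counts. EdgeR did not call the treatment difference in wild type (log2 fold change 3.84, SE 1.83, adjusted p = 0.14), limma did on log2(FPKM + 1) (difference 0.06, adjusted p = 0.033) and on log2(FPKM + 0.1) (difference 0.48, adjusted p = 0.028), DESeq2 did not (adjusted p = 0.24), and with intestinal and kidney markers as covariates edgeR gave -1.91 (adjusted p = 1).

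**Figure D2:**
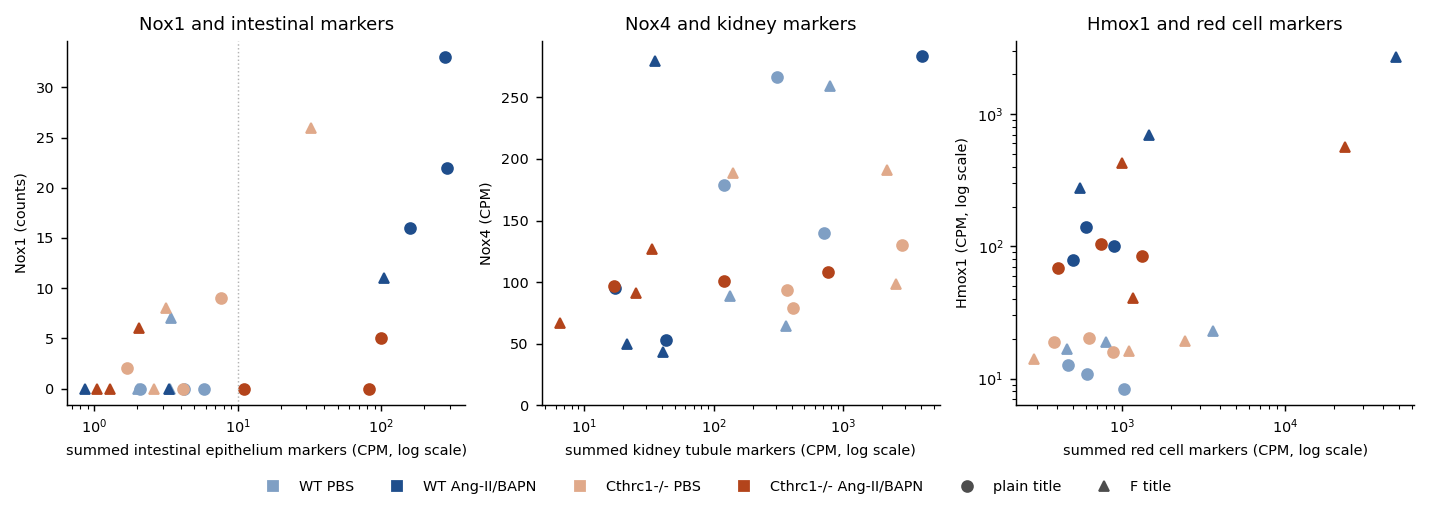
Nox1 counts against summed intestinal markers (left), Nox4 CPM against summed kidney markers (middle) and Hmox1 CPM against summed red cell markers (right), 1 point per library; marker axes and the Hmox1 axis are log scales, colours are genotype and treatment, circles plain and triangles F titles. The 5 libraries with 10 or more Nox1 counts all lie right of the dotted line at 10 CPM; the Hmox1 value of 2687 CPM lies at 48171 CPM of red cell markers.

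The make-up of the catalytic subunits differed between PBS and treated libraries. Of summed Nox1, Nox4 and Cybb FPKM, Nox4 held 95.7 ± 1.38% in wild type aorta under PBS and 55.7 ± 22.8% under Ang-II/BAPN (mean ± SD, n = 6). Cybb held 4.26 ± 1.41% and 44.1 ± 22.7%. Under treatment the Nox4 share ran from 35.0 to 85.2%, with the 2 libraries of high Nox4 at the top, and no treated library reached the lowest PBS value of 93.6%. In Cthrc1-/- aorta the Nox4 share was 94.1 ± 2.74% under PBS and 66.0 ± 7.60% under Ang-II/BAPN, and the Cybb share 5.70 ± 2.80% and 33.9 ± 7.72%. Nox1 held at most 0.607% in any library.

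**Figure D3:**
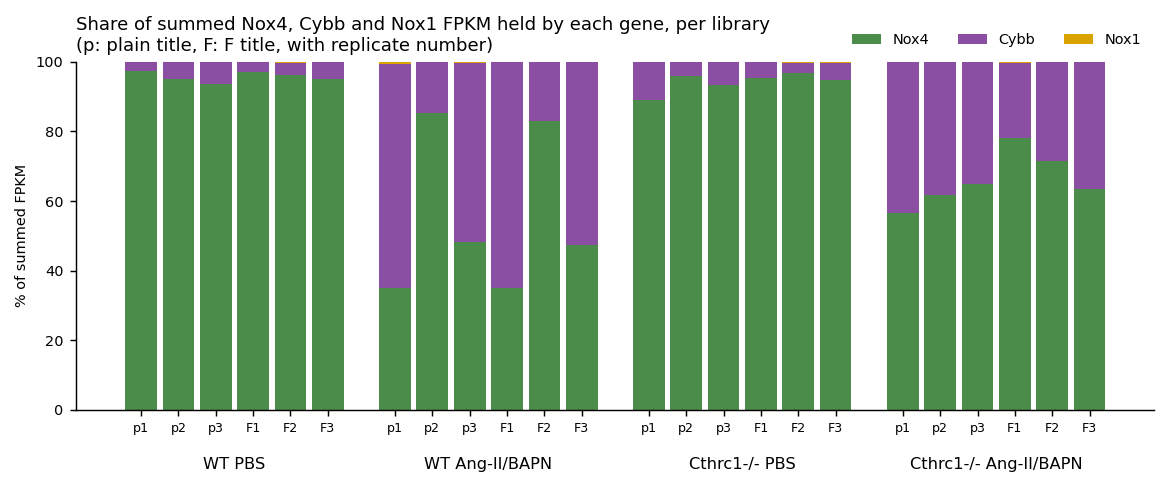
Share of the summed FPKM of Nox4, Cybb and Nox1 held by each gene (y axis, percent) in each of the 24 libraries (x axis, p for plain and F for F titles, with the replicate number). Nox4 fills at least 89.0% of every PBS bar and between 35.0 and 85.2% of the treated bars.

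The largest rise of the set was that of Hmox1. In wild type aorta it lay between 8.41 and 22.7 CPM under PBS (median 14.8) and between 79.4 and 2687 CPM under Ang-II/BAPN (median 209). The plain set lay between 8.41 and 12.7 CPM and the F set between 16.8 and 22.7 CPM already under PBS. The treated plain set libraries had 141, 101 and 79.4 CPM and the treated F set libraries 2687, 695 and 277 CPM. The log2 fold change was 4.65 (SE 0.54, 95% interval 3.53 to 5.77, edgeR adjusted p = 5.9e-06), with 3.33 for plain and 5.97 for F titles, both called. Over both genotypes the response of the F set exceeded that of the plain set by 2.39 (SE 0.66, 95% interval 1.01 to 3.78), which did not pass correction over all genes (edgeR adjusted p = 0.28); 0 of 24623 genes passed for this difference, and 1744 had an unadjusted p under 0.05.

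Red cell markers, of cells that carry haem, were high in 2 treated libraries. Replicate 1 of the wild type F set held 48171 CPM of red cell markers and 2687 CPM of Hmox1, and replicate 2 of the Cthrc1-/- F set 23329 CPM and 560 CPM. The other 22 libraries held at most 3611 CPM of red cell markers, and replicate 2 of the treated wild type F set reached 695 CPM of Hmox1 with 1471 CPM of them. Without these 2 libraries, left out after seeing the data, Hmox1 still rose, by 3.99 in wild type and 3.02 in Cthrc1-/- aorta on the log2 scale (edgeR adjusted p = 5.4e-06 and 1e-04).

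Nqo1, another NRF2 target, went the opposite way. It lay between 8.54 and 12.9 CPM under PBS (median 9.77) and between 4.18 and 11.7 CPM under Ang-II/BAPN (median 5.32) in wild type aorta. Replicate 2 of the treated plain set, the library with 4019 CPM of kidney markers, had the 11.7 CPM and overlapped with PBS, and the other 5 treated libraries were below every PBS library. Nqo1 fell, with a log2 fold change of -0.65 (SE 0.22, 95% interval -1.10 to -0.19, edgeR adjusted p = 0.038), with -0.34 for plain titles, not called, and -0.95 for F titles, called. The call was lost in 17 of 39 alternative analyses. Among these were the omission of any wild type PBS library but F replicate 3, of replicate 1 or 3 of either treated wild type set, or of plain replicate 2 of Cthrc1-/- aorta under PBS. Without the 4 libraries rich in kidney transcripts, left out after seeing the data, the call was kept at -0.90 (edgeR adjusted p = 0.0082). That setting removed plain replicate 2, the treated wild type library that overlapped with PBS.

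Sod3, the most abundant member under PBS, did not pass the test in wild type aorta. It lay between 447 and 614 CPM under PBS (median 505) and between 308 and 479 CPM under Ang-II/BAPN (median 425). The ranges overlapped, with 3 treated libraries inside the PBS range. The difference was -0.32 log2 units (SE 0.20, 95% interval -0.73 to 0.10, edgeR adjusted p = 0.26).

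**Figure D4:**
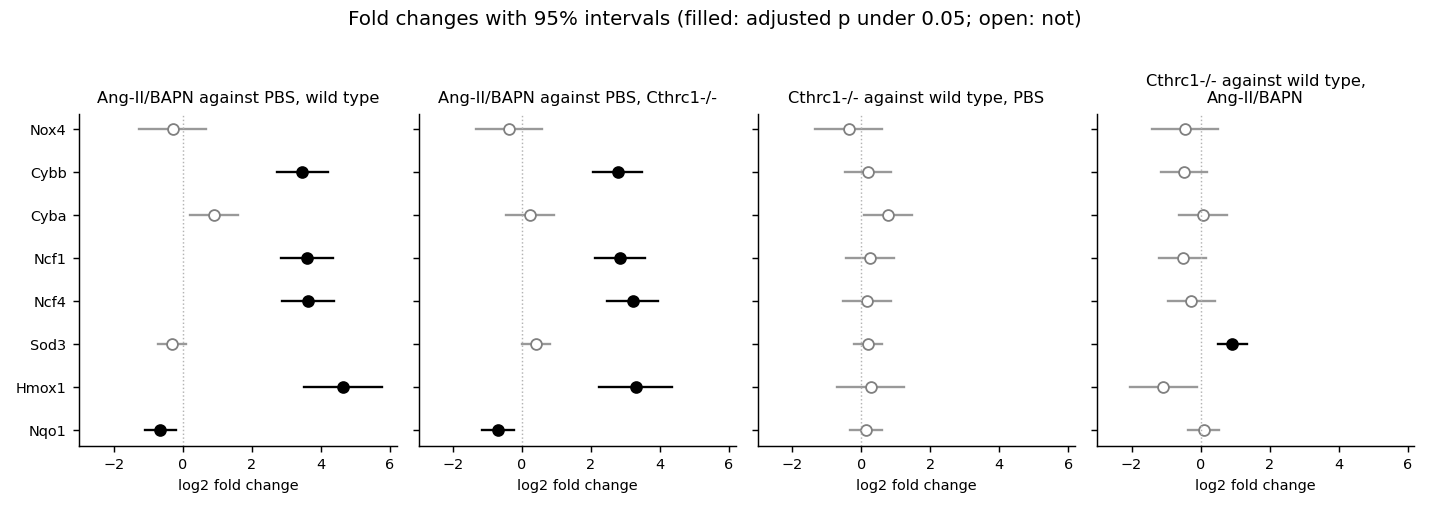
Log2 fold change (x axis) with its 95% interval from the edgeR fit for 8 genes (rows; Nox1, with at most 33 counts, is left out) in 4 comparisons (panels); filled points have an adjusted p under 0.05. Cybb, Ncf1, Ncf4, Hmox1 and Nqo1 are filled in both treatment panels, no point is filled for genotype under PBS, and Sod3 alone is filled for genotype under Ang-II/BAPN.

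In Cthrc1-/- aorta the same 5 genes passed the test, in the same directions: Cybb, Ncf1, Ncf4 and Hmox1 rose and Nqo1 fell. This is 4 of 9 higher and 1 lower, where 11.4% of all tested genes were called, 7.03% higher and 4.4% lower. The median of the 9 log2 fold changes was 0.40, and 1.59 over the 8 without Nox1, against -0.03 over all genes. The 4 that rose again had no overlap with PBS, which held for 6.9% of all genes, 4.69% upward and 2.21% downward. With plain titles alone, 1.7% of genes were called (1.62% higher, 0.0772% lower), and with F titles alone 6.52% (4.4% higher, 2.12% lower).

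Cybb went from between 2.12 and 6.61 CPM (median 6.38) to between 12.6 and 56.7 CPM (median 36.6) in Cthrc1-/- aorta. The treated value of 12.6 CPM was replicate 1 of the F set, a library with 13.2 CPM of Rn7sk, and the other 5 were at or above 34.8 CPM. Cybb rose by 2.77 log2 units (SE 0.34, 95% interval 2.06 to 3.49, edgeR adjusted p = 3.6e-05). Ncf1 rose by 2.84 (SE 0.35), from a median of 5.31 to a median of 30.8 CPM, and Ncf4 by 3.21 (SE 0.35), from 1.45 to 11.7 CPM (edgeR adjusted p = 3.6e-05 and 1.4e-05). Hmox1 went from between 14.1 and 20.3 CPM to between 40.9 and 560 CPM (median 94.0), with 560 and 423 CPM in treated F titles 2 and 3 and at most 104 CPM in the other 4 treated libraries. Its log2 fold change was 3.30 (SE 0.50, 95% interval 2.24 to 4.35, edgeR adjusted p = 0.00023), called within the F set (4.37) and not within the plain set (2.22, edgeR adjusted p = 0.13).

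Nqo1 went from between 8.57 and 14.1 CPM (median 11.1) to between 5.03 and 8.75 CPM (median 7.05). The highest treated library overlapped only with the lowest PBS library. The log2 fold change of -0.69 (SE 0.22, 95% interval -1.15 to -0.23) was just within the threshold (edgeR adjusted p = 0.048), and the call was lost in 24 of 39 alternative analyses. Of the 24 that leave out 1 library each, 17 lost it; it was kept without plain replicates 1, 2 or 3 or F replicates 1 or 2 of treated wild type aorta, and without F replicate 3 under PBS or F replicate 2 under Ang-II/BAPN of Cthrc1-/- aorta. Nox4 (-0.37, SE 0.46), Cyba (0.22, SE 0.33) and Sod3 (0.40, SE 0.20) did not pass the test, with edgeR adjusted p of 0.71, 0.77 and 0.22. Treated Cthrc1-/- libraries were the tightest group for Nox4, between 66.5 and 127 CPM.

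No difference between genotypes was detected in the 9 genes under PBS. Under PBS, edgeR called 0 of 24623 genes between genotypes (0% called; 954 had an unadjusted p under 0.05), limma on FPKM called 0, and DESeq2 called 89, none of them among the 9. Apart from Nox1, the log2 fold changes of Cthrc1-/- against wild type lay between -0.37 for Nox4 (SE 0.46, 95% interval -1.33 to 0.59) and 0.77 for Cyba (SE 0.33, 95% interval 0.07 to 1.47). Cyba stood at 32.9 ± 12.7 CPM in wild type and 54.7 ± 34.5 CPM in Cthrc1-/- aorta, with 119 CPM in replicate 2 of the F set standing above the rest. The 3 Cthrc1-/- libraries with 2179 to 2823 CPM of kidney markers had 54.8, 55.8 and 119 CPM of Cyba, and the other 3 had 25.2 to 46.9 CPM. Leaving out the libraries rich in kidney transcripts, a setting chosen after seeing the data, removed these 3 Cthrc1-/- libraries of highest Cyba. The Cyba difference was then -0.05, and the part of kidney transcripts in it was not tested. Groups did not overlap between genotypes for 0.175% of all genes (0.102% higher, 0.0731% lower), and for none of the 9.

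Under Ang-II/BAPN, Sod3 was higher in Cthrc1-/- than in wild type aorta, and no other member passed the test. This 1 of 9 genes compares with 6.13% of all tested genes, 4.26% higher and 1.87% lower. The median log2 fold change of the 9 genes was -0.44, and -0.35 over the 8 without Nox1, against -0.0034 over all genes. Groups did not overlap for 3.16% of all genes (2.4% higher, 0.755% lower) and for none of the 9. Treated Sod3 lay between 308 and 479 CPM in wild type and between 463 and 1279 CPM in Cthrc1-/- aorta (medians 425 and 727). Only replicate 1 of the Cthrc1-/- plain set, at 463 CPM, fell within the wild type range. The log2 fold change was 0.92 (SE 0.20, 95% interval 0.50 to 1.34, edgeR adjusted p = 0.013), with 0.66 for plain and 1.18 for F titles. Neither was called on its own, where 0.00812% of genes were called for plain titles (0.00406% higher, 0.00406% lower) and 0.146% for F titles (0.126% higher, 0.0203% lower).

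Other values also differed between the treated genotypes. Summed smooth muscle markers, of the cell type that makes the enzyme, lay between 1855 and 6783 CPM in treated wild type and between 8298 and 15914 CPM in treated Cthrc1-/- libraries. Of these markers 8 of 10 were called higher in Cthrc1-/- aorta, and their part in the Sod3 difference was not tested. From PBS to treatment their summed mean went from 24218 to 4728 CPM in wild type and from 24877 to 12325 CPM in Cthrc1-/- aorta. Mean Sod3 went from 516 to 415 CPM in wild type and from 593 to 807 CPM in Cthrc1-/- aorta. Of the fibroblast markers 3 of 8 were higher, and of the intestinal markers 7 of 10 were lower. Over all tested genes 4.26% were higher and 1.87% lower between treated genotypes. Summed intestinal markers ran from 0.864 to 288 CPM in treated wild type and from 1.05 to 98.9 CPM in treated Cthrc1-/- libraries. The highest Sod3 library, replicate 1 of the Cthrc1-/- F set with 1279 CPM, held 13.2 CPM of Rn7sk. Without it the log2 fold change was 0.77 (edgeR adjusted p = 0.060), and without all 5 libraries of high Rn7sk it was 0.81 (edgeR adjusted p = 0.023). The direction was the same in all 39 alternative analyses and the call was lost in 5 of them.

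The other genes did not pass the test between treated genotypes. Hmox1 was lower in Cthrc1-/- aorta by point estimate, with medians of 94.0 and 209 CPM, a log2 fold change of -1.08 (SE 0.47, 95% interval -2.05 to -0.11) and an edgeR adjusted p of 0.16. Without the 2 libraries rich in red cell markers the value was -0.69 (edgeR adjusted p = 0.31). Cybb (-0.49, SE 0.32), Ncf1 (-0.52, SE 0.33) and Ncf4 (-0.26, SE 0.32) had intervals that included 0 and bounded the difference at -1.16, -1.20 and -0.94 on the lower side. Summed macrophage markers were between 996 and 5262 CPM in treated wild type and between 1016 and 2173 CPM in treated Cthrc1-/- libraries. Cyba (0.07, SE 0.33) and Nqo1 (0.09, SE 0.22) were close to 0, and Nox4 (-0.44, SE 0.46) took the other sign without the libraries rich in intestinal transcripts (1.04). Those libraries include both treated wild type libraries of high Nox4.

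Whether genotype altered the response to treatment was tested as an interaction. EdgeR called 0 of 24623 genes (0%; 3132 had an unadjusted p under 0.05), limma called 81 on log2(FPKM + 1) and 39 on log2(FPKM + 0.1), and DESeq2 called 591, none of the 9 genes among them. Hmox1 had an interaction of -1.35 (SE 0.66, 95% interval -2.72 to 0.02, edgeR adjusted p = 0.40), Ncf1 of -0.76 (SE 0.47), Cyba of -0.69 (SE 0.47) and Cybb of -0.68 (SE 0.46). That of Sod3 was 0.72 (SE 0.28, 95% interval 0.13 to 1.31, edgeR adjusted p = 0.28). The Sod3 difference between treated genotypes was therefore not shown to differ from that under PBS (0.20, SE 0.20).

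Genes that vary like each member over the 24 libraries were named by the Pearson correlation of log2 CPM, a description of libraries that share treatment, tissue make-up and depth. Cybb was closest to Pik3ap1, Il10ra, Ptprc, Ccr2 and Nckap1l (0.988 to 0.978), Ncf1 to Ms4a6d, Clec4n, Ctss, Inpp5d and Msr1 (0.992 to 0.984) and Ncf4 to Fermt3, Was, Tyrobp, Ms4a6c and Irf5 (0.984 to 0.981). These include leukocyte genes such as Ptprc, which encodes CD45, and the macrophage scavenger receptor Msr1. Hmox1 was closest to Mmp8, Retnlg, Chil3, Cd101 and Bin3 (0.974 to 0.957), of which Mmp8 and Retnlg are also in the neutrophil marker list. Cyba was closest to Ftl1, Cd63, Prelid1, Snx8 and Rer1 (0.927 to 0.911), of which Ftl1 is the ferritin light chain. Nox1 was closest to H2-T3, Muc2, Gpa33, Apol10a and Muc13 (0.855 to 0.811), among them the intestinal mucins. Nox4 was closest to Igf1r, Cobll1, Vezf1, Arhgef5 and Erbb4 (0.855 to 0.844), Sod3 to Nucb1, Itgb5, Crtap, Nupr1 and Pmepa1 (0.912 to 0.881), and Nqo1 to Rbpms2, Pkp4, Slc9a2, Pip5k1b and Enpp6 (0.872 to 0.845). Among the members, Cybb, Ncf1 and Ncf4 correlated with each other at 0.934 to 0.971 and Ncf1 with Hmox1 at 0.932, whereas Cyba correlated with Cybb at 0.208, with Ncf1 at 0.417, with Ncf4 at 0.426, with Hmox1 at 0.521 and with Nox4 at -0.472.

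Other genes of the pathway were read from 6 lists. Macrophage and neutrophil markers moved with the phagocyte genes among them, as given above. Of 15 further oxidase subunits and regulators 14 were tested, and in treated wild type aorta 5 were higher and 1 lower (median log2 fold change 0.35, against 0.01 over all genes, of which 13.3% were higher and 11.5% lower). Rac2, the small GTPase of the phagocyte oxidase, rose with a log2 fold change of 3.18 and an SE of 0.34 (edgeR adjusted p = 3.0e-06), with 5.25 ± 1.65 CPM under PBS and 47.9 ± 31.8 CPM under treatment. Cybc1, a chaperone of Cybb and Cyba, went from 22.3 ± 1.57 to 38.3 ± 12.9 CPM (0.77, SE 0.15). Noxo1, the organiser subunit of Nox1, fell from 3.07 ± 0.665 to 0.787 ± 0.210 CPM (-1.96, SE 0.27, edgeR adjusted p = 3.7e-05). In Cthrc1-/- aorta 4 were higher and 1 lower (7.03% and 4.4% over all genes; 3 to 6 called when 1 library was left out), again with Rac2 (2.17, SE 0.33) and Noxo1 (-1.12, SE 0.27), and Sh3pxd2b, an adaptor of invadopodia, rose in both genotypes (0.96, SE 0.22, in wild type and 0.79, SE 0.22, in Cthrc1-/- aorta), the latter call being lost in 14 of 39 alternatives. None was called between treated genotypes.

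**Figure D5:**
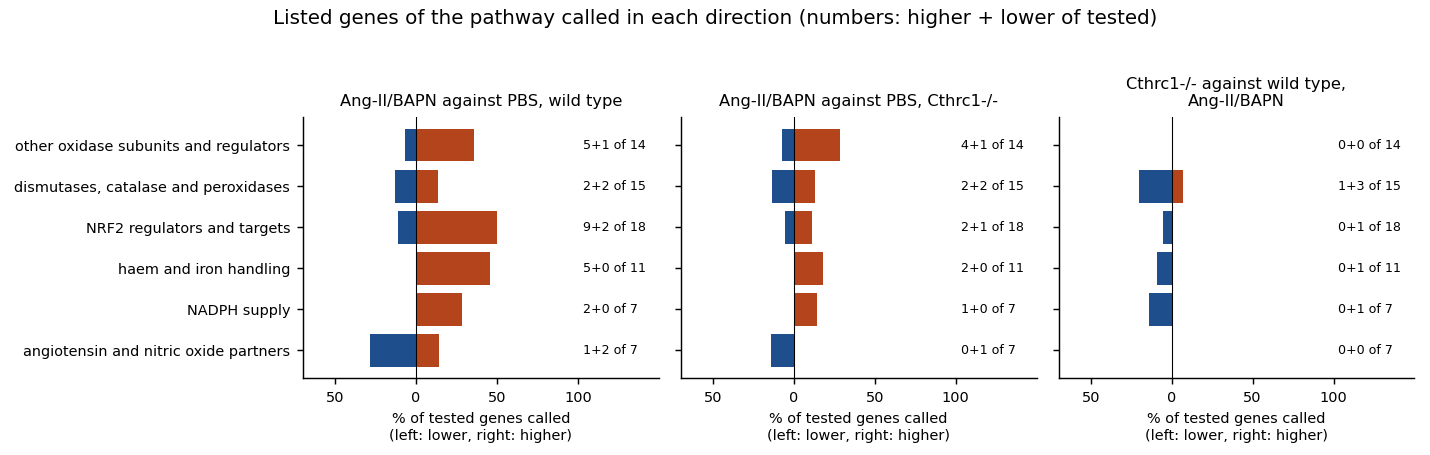
Percent of the tested genes of each list (rows) that were called higher (right of 0) or lower (left of 0) in 3 comparisons (panels), with the counts of higher and lower genes beside each bar. In wild type aorta 9 of 18 NRF2 genes and 5 of 11 haem and iron genes are higher, in Cthrc1-/- aorta 2 of each.

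Of 18 NRF2 regulators and targets, 9 were higher and 2 lower in treated wild type aorta (median 0.79), against 13.3% and 11.5% of all genes. In treated Cthrc1-/- aorta 2 were higher and 1 lower (median 0.09, against -0.03 over all genes), where 7.03% and 4.4% of all genes were, so that this count is near the background. Leaving out 1 library moved it between 2 and 5, the latter without F replicate 1 of the treated group. Slc7a11, the cystine carrier that feeds glutathione synthesis, rose by 5.83 log2 units in wild type aorta (SE 0.81, edgeR adjusted p = 3.5e-05), from 0.199 ± 0.139 to 11.6 ± 8.12 CPM, and by 3.98 (SE 0.73) in Cthrc1-/- aorta, from 0.355 ± 0.249 to 5.61 ± 4.67 CPM. Gsr, glutathione reductase, rose in wild type (1.74, SE 0.30), and Sesn2, a stress-induced sestrin, rose by 0.94 (SE 0.21). The glutathione transferase Gstm1 fell in both (-1.54, SE 0.29, and -1.19, SE 0.29), from 318 ± 56.7 to 108 ± 37.2 CPM in wild type. Bach1, the repressor of Hmox1, rose in both genotypes, from 26.7 ± 5.85 to 54.4 ± 2.44 CPM in wild type (1.04, SE 0.24, edgeR adjusted p = 0.0034) and from 25.2 ± 7.12 to 44.5 ± 14.4 CPM in Cthrc1-/- aorta (0.82, SE 0.24, edgeR adjusted p = 0.03), where 13 of 39 alternatives lost the call. Gclc, the catalytic subunit of glutamate-cysteine ligase, was lower in treated Cthrc1-/- than in treated wild type aorta, at 32.5 ± 9.17 against 60.5 ± 13.5 CPM (-0.90, SE 0.24, edgeR adjusted p = 0.03), again with 13 of 39 alternatives losing the call. None of the 18 passed the interaction test, so that the differing counts of the 2 genotypes are not shown to differ.

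Of 15 dismutases, catalase and peroxidases, 2 were higher and 2 lower in each genotype upon treatment (medians 0.10 in wild type and -0.47 in Cthrc1-/- aorta). In wild type this share is near the 24.8% of all genes called, and in Cthrc1-/- aorta, where 11.4% of all genes were called, the count ran from 1 to 5 when 1 library was left out, 1 being without F replicate 2 under PBS or plain or F replicate 2 under treatment. Gpx7, a peroxidase of the endoplasmic reticulum, rose in both (0.91, SE 0.22, and 0.96, SE 0.22), and Gpx4, which reduces lipid peroxides, fell in both (-1.20, SE 0.30, and -1.05, SE 0.30, the latter call lost in 11 of 39 alternatives), from 435 ± 217 to 181 ± 53.9 CPM in wild type. Prdx1 passed the test in wild type (1.08, SE 0.31), with a treated median of 269 and a maximum of 1074 CPM, and without F replicate 1 of the treated group its value was 0.51 and the call was lost (edgeR adjusted p = 0.065). The catalase gene Cat fell in Cthrc1-/- aorta (-0.73, SE 0.22), a call lost in 14 of 39 alternatives. The fall of Sod1 in wild type (-0.84, SE 0.30, edgeR adjusted p = 0.045) was lost in 28 of 39 alternatives. Between treated genotypes 1 was higher and 3 lower, where 4.26% and 1.87% of all genes were; the count ran from 0 (without plain replicate 2 of treated Cthrc1-/- aorta) to 5 when 1 library was left out. Cat stood at 146 ± 24.9 CPM in Cthrc1-/- and 279 ± 97.3 CPM in wild type aorta (-0.92, SE 0.22, edgeR adjusted p = 0.018), and Prdx6, a peroxidase of the cytosol, had a log2 fold change of -0.69 at 81.5 ± 16.6 against 136 ± 56.9 CPM (edgeR adjusted p = 0.021); 7 of 39 alternatives lost each call. Gpx2, a peroxidase of intestinal epithelium that reached at most 2.71 CPM, was lower as well, and Gpx8 was higher (0.58, SE 0.17, edgeR adjusted p = 0.048), with 22 of 37 alternatives losing the call of Gpx2 and 30 of 39 that of Gpx8.

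Of 11 haem and iron genes, 5 were higher in treated wild type aorta and 2 in treated Cthrc1-/- aorta, and none was lower, against 13.3% and 7.03% of all genes higher. The wild type count fell to 3 without plain or F replicate 2 under PBS. Hp, the haemoglobin-binding haptoglobin, went from 247 ± 134 to 1916 ± 936 CPM in wild type (2.96, SE 0.43, edgeR adjusted p = 5.6e-05) and rose in Cthrc1-/- aorta (2.22, SE 0.42). Slc40a1, the iron exporter ferroportin, rose in wild type (3.12, SE 0.61) with 276 CPM in 1 library, and Cd163, the macrophage receptor for haptoglobin and haemoglobin, rose in Cthrc1-/- aorta (1.40, SE 0.29). Hpx, the haem carrier haemopexin, rose in wild type (2.81, SE 0.64) and was lower in treated Cthrc1-/- aorta, at 2.41 ± 1.77 against 13.8 ± 4.76 CPM (-2.69, SE 0.64, edgeR adjusted p = 0.019); 6 of 39 alternatives lost the latter call. Liver markers, of the organ that secretes haemopexin, lay between 1.52 and 408 CPM in treated wild type and between 0.954 and 14.3 CPM in treated Cthrc1-/- libraries.

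Of 7 genes of NADPH supply, 2 were higher and 0 lower in treated wild type aorta, where 24.8% of all genes were called and 13.3% were higher. In treated Cthrc1-/- aorta 1 was higher and 0 lower, where 11.4% of all genes were called and 7.03% were higher. With so few genes these counts are not read as a result about the list. Mthfd2 and Idh1 rose in treated wild type aorta (1.05, SE 0.19, and 0.85, SE 0.23) and Mthfd2 in treated Cthrc1-/- aorta (0.86, SE 0.19). Nnt, the mitochondrial transhydrogenase, was lower in treated Cthrc1-/- aorta, at 10.1 ± 5.37 against 36.1 ± 8.20 CPM (-1.84, SE 0.37, edgeR adjusted p = 0.0094), and had a value of -1.89 (SE 0.37, edgeR adjusted p = 0.20) under PBS. The table holds a second Nnt entry (ENSMUSG00000116207) over the same bases of chromosome 13, so that the split of reads between the 2 entries is uncertain. In wild type aorta its median was 0 CPM under PBS and under Ang-II/BAPN, with maxima of 8.97 and 41.3 CPM (means 1.49 and 6.88 CPM). In Cthrc1-/- aorta its medians were 9.11 and 11.4 CPM (means 10.5 and 12.0 CPM). Every Cthrc1-/- library under PBS held at least 7.05 CPM of it, and the lowest treated one 0 CPM. Of 7 angiotensin and nitric oxide genes, Nos3, the endothelial nitric oxide synthase, fell in both genotypes (-0.90, SE 0.18, and -0.86, SE 0.18), from 66.4 ± 17.4 to 35.6 ± 7.10 CPM in wild type. Of 8 endothelial markers, Nos3 itself among them, 5 were lower and 1 higher in treated wild type and 6 lower in treated Cthrc1-/- aorta. Over all genes 11.5% were lower and 13.3% higher in wild type, and 4.4% were lower in Cthrc1-/- aorta. The part of endothelial content in the Nos3 values was not tested. In wild type the receptor gene Agtr1b fell (-2.53, SE 0.64) and Agtr2 rose from 0.274 ± 0.142 to 1.54 ± 0.877 CPM (2.59, SE 0.83, edgeR adjusted p = 0.028), a call lost in 9 of 39 alternatives, among them the omission of plain replicate 1 or 3 or F replicate 2 or 3 under PBS or of F replicate 1 under treatment.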

How the data were processed

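The 24 libraries of mouse aorta RNA form 8 groups of 3, given by the genotype and treatment labels and by whether the title begins with F. Per the labels' protocols, a stranded total RNA kit and paired reads were used; HISAT2, StringTie, DESeq2 and build GRCm38 are named in the submitters' processing notes, without roles or versions. The authors deposited whole-number counts and FPKM values per gene and library in 1 table of 40141 genes. How counts were made, and whether strand was used, is not given in the sources used here. The table holds 4 more columns, of 2 libraries the labels used here do not describe, which were not used.

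The 9 genes and all gene lists were chosen with earlier results of these data known. Counts of 24623 genes (filterByExpr on 8 groups, minimum count 10, minimum total 15; 15518 genes left out) entered edgeR 4.0.16 under R 4.3.3 (TMM, robust quasi-likelihood fit of 8 group means, contrasts averaged over title sets and taken within each), adjusted by Benjamini-Hochberg with a threshold of 0.05. Standard errors come from the F statistic. CPM use TMM-scaled library sizes. Genes named are the 9 members, Cthrc1, Nnt, up to 4 genes of each list with the smallest adjusted p (some are not named, and 1 is not reported here), and for each member the 5 named genes with the highest correlation of log2 CPM (prior 0.5). Macrophage, neutrophil and other marker sums, Rn7sk and Xist are given as ranges. The fit was tested on simulated data.

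Totals of 39002048 to 82040703 counts make counting error small for all members but Nox1. Intervals reflect how far libraries of a group scatter (biological coefficient of variation 57.0% over all genes). The limit of 3 counts covers counting error only. No 2 replicates agreed within sampling noise (chi-square per degree of freedom at least 61.5). The labels do not say whether libraries share animals, litters or days, so the p-values here cover only variation among these samples, part of which may be technical.

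The analyses were repeated with DESeq2 1.42.0, with limma 3.58.1 on log2(FPKM + 1) and log2(FPKM + 0.1), with RLE size factors, with no filter or a stricter one, with a replicate block, with title set left out or added to the arms, on the compared libraries alone, with organ marker covariates, and leaving out single libraries or the 8 libraries with at least 10 CPM of intestinal markers. Leaving out libraries with at least 1000 CPM of kidney markers, 10000 CPM of red cell markers or 4 CPM of Rn7sk was chosen after seeing the data.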

Additional observations from a re-analysis of the deposited data

Results flagged for a closer look

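In 36 groups of 6 libraries (9 genes in 4 combinations of genotype and treatment), 5 values lay far from the other libraries of their group by Dixon's test. Chance gives about 1 in 20 for normally distributed values in independent groups. The CPM were not transformed, and genes share libraries, so that rate is only a rough guide here. Replicate 1 of the treated wild type F set gave 3 of them, with 141 CPM of Cyba, 132 CPM of Ncf1 and 2687 CPM of Hmox1. That library also held the highest sums of macrophage markers (5262 CPM), neutrophil markers (313 CPM) and red cell markers (48171 CPM) of all 24 libraries, and their part in these values was not tested. Replicate 2 of the Cthrc1-/- F set under PBS had 119 CPM of Cyba, with 2556 CPM of kidney markers and 4.85 CPM of Rn7sk. Replicate 2 of the wild type F set under PBS had 0.131 CPM of Nox1, which is 7 counts, in a group whose other libraries had 0. Any count above 0 would have been flagged there.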

How the results depend on the processing

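Each result was recomputed in up to 39 alternatives, 15 settings and 24 omissions of 1 library. Cybb, Ncf1, Ncf4 and Hmox1 kept their direction and their call in all 39 in both genotypes. Of the 9 genes, 4 to 6 were called for treatment in wild type (5 reported) and 4 to 5 in Cthrc1-/- aorta (5 reported). Between treated genotypes the 1 called gene, Sod3, became 0 in 4 settings: without the libraries with intestinal markers (log2 fold change 1.25, edgeR adjusted p = 0.22), with marker covariates (0.89, 0.063), without the 4 libraries rich in kidney markers (0.92, 0.061) and on the compared libraries alone (0.90, 0.073). It ranged from 0 to 1 when single libraries were left out, 0 being without F replicate 1 of treated Cthrc1-/- aorta.

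Signs changed for differences that were not called. With marker covariates, log2 fold changes were -1.91 for Nox1 in treated wild type, 0.23 for Nox4 in treated Cthrc1-/- aorta, and, between treated genotypes, 1.08 for Nox1, 0.80 for Nox4 and -0.073 for Cyba. Without the libraries with intestinal markers they were -0.18 for Cyba in treated Cthrc1-/- aorta and, between treated genotypes, 1.04 for Nox4 and -0.25 for Cyba. Without the libraries rich in kidney markers Cyba was -0.046 between genotypes under PBS and Nox4 0.035 under treatment. Between treated genotypes Cyba was -0.061 without high Rn7sk, Ncf4 0.013 and Nqo1 -0.10 without the red cell libraries, and Nqo1 -0.0054 and -0.0023 with limma at pseudocounts of 1 and 0.1. When single libraries were left out, Nox4 ranged from -1.004 to 0.17 for treatment in wild type (0.17 without F replicate 1 under PBS) and from -0.54 to 0.060 between genotypes under PBS. Between treated genotypes the ranges were -4.21 to 0.70 for Nox1, -0.65 to 0.27 for Nox4, -0.10 to 0.46 for Cyba, -0.44 to 0.13 for Ncf4 and -0.017 to 0.34 for Nqo1. The cause was not tested.

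Over all genes, 6097 were called for treatment in wild type, against 2246 without the libraries with intestinal markers and 3664 with covariates. In Cthrc1-/- aorta 2813 became 1055, 1115 and, without kidney-rich libraries, 1025, and 1681 without plain replicate 2 of the treated group. Between treated genotypes 1510 became 907 without a filter, 1 without the libraries with intestinal markers, 700 with covariates, 323 without kidney-rich libraries, 828 without high Rn7sk, 0 on the compared libraries alone, 3197 with DESeq2 and 507 without F replicate 1 of treated Cthrc1-/- aorta. The interaction, with 0 calls, had up to 87 when single libraries were left out.

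Same-numbered replicates did not deviate together in a regular way (correlations -0.348 to 0.422), and the main fit assumed no pairing by number. Such correlations cannot show that the samples were unpaired. The replicate block gave 5569, 2458, 0, 1099 and 0 calls for treatment in wild type, treatment in Cthrc1-/-, genotype under PBS, genotype under treatment and the interaction. Leaving out libraries with at least 10 CPM of kidney markers would have removed 23 of 24 libraries and gave no value, and Nox1 was filtered out, and has no value, under the stricter filter, without the libraries with intestinal markers, and on the compared libraries alone for treatment in Cthrc1-/- aorta and genotype under PBS. Depth limits only Nox1; for the others the scatter between libraries does.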
